A study of Mus musculus with 16 samples.

Results

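Nlrp3, Pycard, Casp1, Casp4, Gsdmd, Casp8, Ripk3, Mlkl and Bax are 9 genes of inflammasome signalling and cell death. They were chosen by symbol, matched to the Ensembl identifiers of the deposited values, and all 9 were among the 15350 genes listed in every library. Their transcripts were measured in the interscapular brown fat of mice on the C57BL/6J background, with 4 libraries in each of 4 groups. The groups were Ucp1-knockout (KO) mice on isoproterenol, KO mice on saline, wild-type (WT) mice on isoproterenol and WT mice on saline. Isoproterenol, an agonist of beta-adrenergic receptors, was infused by minipump at 60 mg per kg per day for 3 days, and the saline groups carried saline minipumps for the same time. The labels give no age or sex, do not say which part of Ucp1 is missing, and do not tie libraries to individual mice. A p-value here thus sets a difference against library-to-library spread, some of which may be technical. Total RNA came from whole tissue, so fewer cells of a type and less RNA per cell cannot be told apart.

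Inflammasomes are cytosolic complexes in which a sensor such as NLRP3 recruits the adaptor ASC (encoded by Pycard) and activates caspase-1. Caspase-1 matures interleukin-1 beta and interleukin-18, and caspase-1 or the lipopolysaccharide-binding caspase-4 cleaves gasdermin D, whose released fragment opens pores in the plasma membrane. Caspase-8 starts apoptosis below death receptors and restrains necroptosis, in which RIPK3 phosphorylates the membrane-disrupting MLKL, while BAX permeabilises the outer mitochondrial membrane in intrinsic apoptosis. In adipose tissue these genes are best known from macrophages and from inflamed fat. A transcript level says nothing about whether any of these proteins was activated.

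RefSeq promoter sequences (build GRCm38) were held for 8 of the 9 genes, Gsdmd having no entry, and the 250 bases before the annotated start were searched on both strands. For Nlrp3 and Casp4 2 start sites were held, and only the first listed was searched. The stretches of Nlrp3 and Casp8 lie inside their annotated genes, so the outermost starts of these genes were not searched. The promoters of Nlrp3, Casp1, Casp4 and Bax are shown because they stand for a sensor, its effector caspase, the gene with the highest response difference between genotypes, and the mitochondrial pore former. The positions are chr11:59542436-59542685, plus strand for Nlrp3, chr9:5298267-5298516, plus strand for Casp1, chr9:5308599-5308848, plus strand for Casp4 and chr7:45466899-45467148, minus strand for Bax. Capitals mark the motif matches, which are GAGGAAG or its reverse complement in Nlrp3, CACGTG in Casp1 and Bax, and NF-kappaB matches in Casp4.
Nlrp3: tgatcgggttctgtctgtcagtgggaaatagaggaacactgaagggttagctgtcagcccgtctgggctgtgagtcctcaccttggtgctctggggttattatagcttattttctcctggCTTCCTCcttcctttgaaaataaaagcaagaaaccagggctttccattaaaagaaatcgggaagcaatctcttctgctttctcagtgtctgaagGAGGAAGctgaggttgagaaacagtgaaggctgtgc
Casp1: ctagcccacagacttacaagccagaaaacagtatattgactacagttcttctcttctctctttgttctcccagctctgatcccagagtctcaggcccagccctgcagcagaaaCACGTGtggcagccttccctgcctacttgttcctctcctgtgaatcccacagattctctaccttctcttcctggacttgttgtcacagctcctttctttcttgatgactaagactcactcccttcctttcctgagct
Casp4: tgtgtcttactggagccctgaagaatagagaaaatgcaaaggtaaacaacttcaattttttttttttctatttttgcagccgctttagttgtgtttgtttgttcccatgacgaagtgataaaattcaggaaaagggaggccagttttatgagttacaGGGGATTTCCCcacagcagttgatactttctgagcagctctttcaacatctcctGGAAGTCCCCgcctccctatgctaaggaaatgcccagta
Bax: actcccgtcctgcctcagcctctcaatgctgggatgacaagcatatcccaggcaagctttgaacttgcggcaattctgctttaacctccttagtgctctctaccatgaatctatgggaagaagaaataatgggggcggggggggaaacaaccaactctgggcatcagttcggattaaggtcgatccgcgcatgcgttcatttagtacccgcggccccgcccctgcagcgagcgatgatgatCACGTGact
The NF-kappaB motif was found in 1 of the 8 promoters, that of Casp4, and in 7.01% of 27025 RefSeq promoters of the same length. Casp4 held it at 93, 92 and 39 bases before the start, and the first pair of matches overlap on the same bases. The PU.1 and ETS motif GAGGAAG was found in 2 of the 8 promoters (Nlrp3 and Pycard), against 10.4% of all promoters. The E-box CACGTG was found in 3 of the 8 (Casp1, Ripk3 and Bax), against 6.05% of all promoters. The core of the interferon-stimulated response element, the gamma-activated site TTCNNNGAA, the AP-1 motif TGANTCA and the cAMP response element TGACGTCA were found in 0 of the 8. Over all promoters they were found in 3.04%, 7.18%, 6.87% and 1.62%, in that order. A match describes these letters and is neither a site nor a cause.

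Library depth ran from 9004515 to 20986735 recovered reads over the listed genes. Levels are counts per 1e6 reads (CPM) on the authors' scaling, where 1 read was worth 0.0476 to 0.115 CPM. Correlations of log2 CPM between libraries of a group ran from 0.852 to 0.957 in KO isoproterenol, against 0.964 to 0.974 in KO saline. WT isoproterenol libraries correlated at 0.958 to 0.985, and WT saline libraries at 0.949 to 0.977. Replicate 1 of KO isoproterenol was the least like the rest of its group, so the KO responses and response differences of the 9 genes, and some of the pathway changes, are also given without it. Ucp1, the targeted gene, was at 18.96 to 2129 CPM in KO isoproterenol, 410 to 1156 CPM in KO saline, 8905 to 18458 CPM in WT isoproterenol and 2298 to 3449 CPM in WT saline. Since the deleted part is not stated, Ucp1 reads in KO tissue cannot check the labels there. Group means were compared with limma over all 16 libraries, with Benjamini-Hochberg adjustment over the 15350 genes and a call at an adjusted p under 0.05. The spread of a gene was taken from all 4 groups together. For the 9 genes the SE thus held the wider spread of KO isoproterenol also in comparisons without that group.

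Isoproterenol raised all 9 genes in KO tissue. Each was called higher in KO isoproterenol than in KO saline, with log2 fold changes of 1.17 (Casp8) to 2.78 (Casp4) and a median of 2.10. The background of this comparison was high, since 48.6% of all listed genes were called (23.8% higher and 24.8% lower), with a median log2 fold change of -0.0021. With scaling by library totals instead of the authors' factors, 4493 of all genes were called higher and 2939 lower, against 3647 and 3813 with the authors' factors. The 4 KO isoproterenol libraries lay above the 4 KO saline libraries for all 9 genes, as they did for 18.1% of all listed genes. KO isoproterenol replicate 1 was the highest library for 9 of the 9 genes, and replicate 4 was the lowest of its group for 8 of the 9. The SD of log2 CPM within KO isoproterenol ran from 0.46 (Casp8) to 1.52 (Nlrp3), against 0.17 (Bax) to 0.51 (Casp4) in KO saline.

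**Figure D1:**
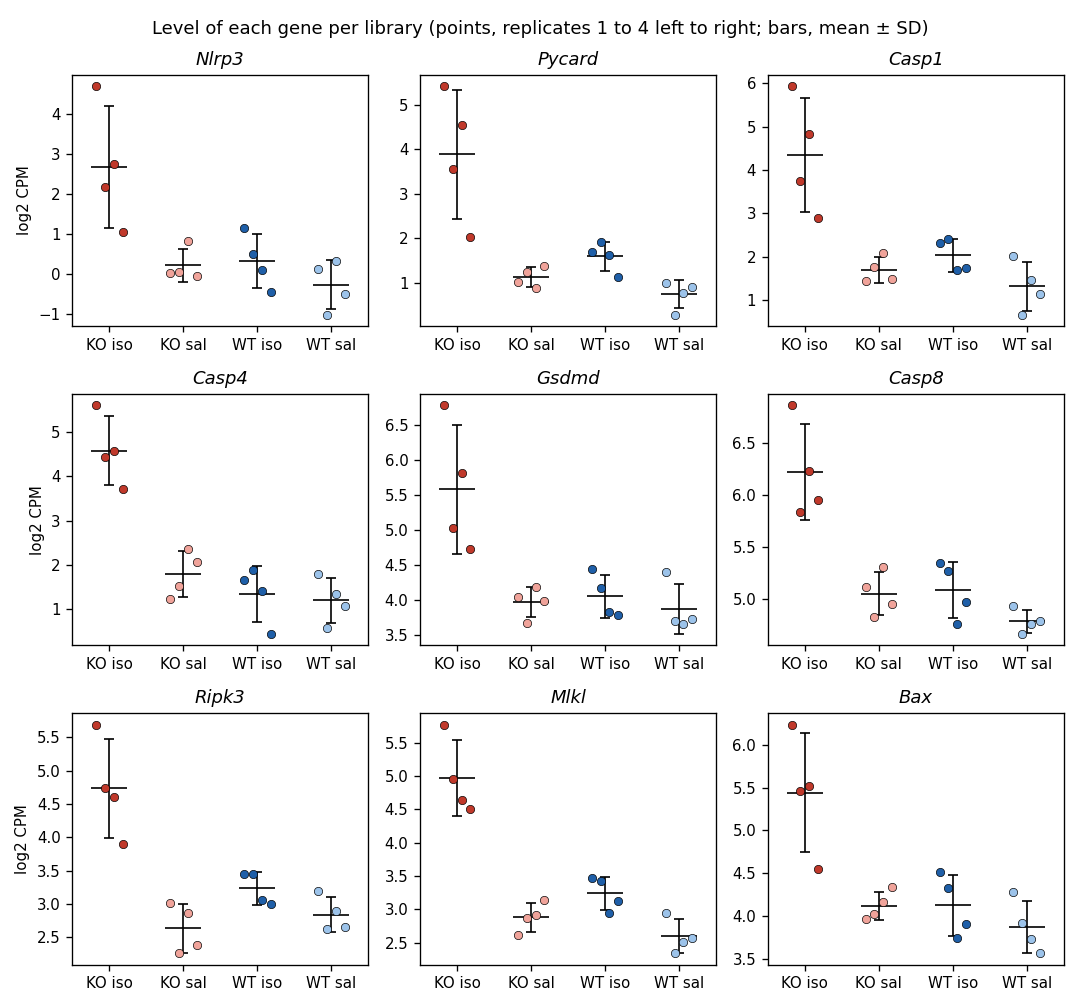
Log2 CPM of each of the 9 genes (1 panel each) in the 4 KO isoproterenol, 4 KO saline, 4 WT isoproterenol and 4 WT saline libraries, as points in the order of replicates 1 to 4, with the group mean and its SD as bars. The KO isoproterenol points lie above all KO saline points in each panel, with replicate 1 at the top, and the 3 other groups lie close together.

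The sensor and adaptor had low levels outside KO isoproterenol. Nlrp3 (ENSMUSG00000032691, chromosome 11) was at 25.8, 4.48, 6.77 and 2.08 CPM in replicates 1 to 4 of KO isoproterenol, against 1.03, 1.04, 1.78 and 0.976 CPM in KO saline. It was at 2.21, 1.43, 1.07 and 0.735 CPM in WT isoproterenol and 1.10, 0.497, 1.26 and 0.706 CPM in WT saline. These are few reads, 5 to 24 per library outside KO isoproterenol and 41 to 541 within it. The KO difference on the log2 scale was 2.44 (SE 0.59, limma adjusted p = 0.00346), although KO isoproterenol replicate 4 lay below WT isoproterenol replicate 1. Its libraries had the widest spread of the 9 genes in KO isoproterenol.

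Pycard (ENSMUSG00000030793, chromosome 7), which encodes the ASC adaptor, was at 42.6, 11.7, 23.3 and 4.09 CPM in KO isoproterenol and 2.02, 2.37, 1.85 and 2.58 CPM in KO saline. WT isoproterenol libraries had 3.25, 3.79, 3.07 and 2.21 CPM, and WT saline libraries 1.98, 1.22, 1.72 and 1.87 CPM. The KO groups did not overlap, and neither did the WT groups, where 16.3% of all listed genes lay higher with isoproterenol without overlap. The KO log2 difference was 2.75 (SE 0.50, limma adjusted p = 4.37e-04). The gene model of Pycard shares 485 exonic bases with the unlisted Gm45205 on the other strand, and since the strand setting of the counting is not given in the sources used here, reads of the 2 genes may be mixed.

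Casp1 (ENSMUSG00000025888, chromosome 9), the protease that the inflammasome activates, was at 61.1, 13.3, 28.6 and 7.39 CPM in KO isoproterenol and 2.73, 3.37, 4.24 and 2.81 CPM in KO saline. It was at 4.94, 5.34, 3.21 and 3.33 CPM in WT isoproterenol and 4.01, 1.58, 2.74 and 2.20 CPM in WT saline. All 4 KO isoproterenol libraries exceeded the 12 other libraries, whose groups overlapped. The KO log2 difference was 2.65 (SE 0.49, limma adjusted p = 5.06e-04). Across the 16 libraries Casp1 and Pycard had the highest Pearson correlation of any pair among the 9 genes, 0.976, and Ripk3 and Casp4 the lowest, 0.894, over libraries that differ by group.

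Casp4 and Gsdmd act at the pyroptotic end of the pathway. Casp4 (ENSMUSG00000033538), also called caspase-11 in mice, lies beside Casp1 on chromosome 9 and binds intracellular lipopolysaccharide. Its levels were 48.6, 21.5, 23.9 and 13.3 CPM in KO isoproterenol, against 2.37, 2.87, 5.19 and 4.19 CPM in KO saline. WT isoproterenol libraries had 3.15, 3.71, 2.66 and 1.37 CPM, and WT saline libraries 3.48, 1.49, 2.56 and 2.12 CPM. Every KO isoproterenol library was above every other library, and the WT groups overlapped, with a WT log2 difference of 0.15 (SE 0.41) that was not called. The KO log2 difference was 2.78 (SE 0.41, limma adjusted p = 8.05e-05), the highest of the 9.

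Gsdmd (ENSMUSG00000022575, chromosome 15), the pore-forming substrate, was at 110, 32.6, 56.2 and 26.4 CPM in KO isoproterenol and at 16.5, 12.8, 18.2 and 15.8 CPM in KO saline. In WT isoproterenol it was at 21.8, 17.97, 14.2 and 13.8 CPM, and in WT saline at 21.2, 13.05, 12.6 and 13.2 CPM. No KO isoproterenol library overlapped another group, and WT saline replicate 1 was far above the other WT saline libraries. The KO log2 difference was 1.62 (SE 0.34, limma adjusted p = 0.00131).

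Among the apoptosis and necroptosis genes, Casp8 had the smallest fold change of the 9. Casp8 (ENSMUSG00000026029, chromosome 1) was at 116, 57.2, 75.1 and 61.7 CPM in KO isoproterenol, against 34.7, 28.5, 39.5 and 31.1 CPM in KO saline. Its levels were 40.7, 38.6, 27.1 and 31.4 CPM in WT isoproterenol and 30.6, 25.4, 27.1 and 27.8 CPM in WT saline. The KO isoproterenol libraries again stood clear of the other 12, which overlapped between groups. Isoproterenol changed its log2 level in KO tissue by 1.17 (SE 0.19, limma adjusted p = 2.27e-04).

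Ripk3 (ENSMUSG00000022221, chromosome 14), the kinase of the necrosome, was at 51.7, 26.7, 24.3 and 14.9 CPM in KO isoproterenol and 8.11, 4.79, 7.29 and 5.23 CPM in KO saline. It was at 10.9, 10.9, 8.31 and 7.95 CPM in WT isoproterenol and 9.13, 6.19, 7.40 and 6.27 CPM in WT saline. The KO groups were clear of each other and the WT groups overlapped. In KO tissue its log2 difference was 2.10 (SE 0.30, limma adjusted p = 6.37e-05).

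Mlkl (ENSMUSG00000012519, chromosome 8), the executioner of necroptosis, was at 54.6, 31.1, 25.1 and 22.8 CPM in KO isoproterenol and 6.13, 7.29, 7.51 and 8.79 CPM in KO saline. WT isoproterenol libraries had 11.1, 10.7, 7.69 and 8.72 CPM, and WT saline libraries 7.72, 5.10, 5.72 and 5.94 CPM. All 4 KO isoproterenol libraries were above the 12 others, and the WT groups overlapped at 1 library of each. Its KO log2 difference of 2.09 (SE 0.24, limma adjusted p = 9.69e-06) had the smallest adjusted p of the 9 genes.

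Bax (ENSMUSG00000003873, chromosome 7), the mitochondrial pore former of intrinsic apoptosis, was at 75.5, 43.9, 46.1 and 23.4 CPM in KO isoproterenol, against 15.5, 16.2, 17.9 and 20.2 CPM in KO saline. It was at 22.8, 20.1, 13.4 and 15.02 CPM in WT isoproterenol and 19.4, 15.1, 13.3 and 11.8 CPM in WT saline. The gap was narrow at KO isoproterenol replicate 4, which lay just above KO saline replicate 4 and WT isoproterenol replicate 1. In KO tissue the log2 difference was 1.32 (SE 0.28, limma adjusted p = 0.00128). The gene model of Bax shares 192 exonic bases with the unlisted Gm45808 on the same strand, so some of its reads may belong to that gene.

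All 9 KO calls held when KO isoproterenol replicate 1 was left out. The log2 differences of KO isoproterenol against KO saline were then 1.77 in Nlrp3, 2.25 in Pycard, 2.12 in Casp1, 2.44 in Casp4, 1.22 in Gsdmd, 0.95 in Casp8, 1.78 in Ripk3, 1.82 in Mlkl and 1.06 in Bax. Over the 16 fits that each left out 1 library, the largest adjusted p for this comparison was 0.0109, for Nlrp3.

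In WT tissue the call depended on the fit. By limma over all 16 libraries 0 of the 9 were called, with or without voom precision weights, against 16.6% of all genes, with 7.60% higher. All 9 WT differences were above 0 on the log2 scale, with a median of 0.39 against -0.018 over all genes, and 1 gene had an unadjusted p under 0.05. That gene was Mlkl, at 0.64 (SE 0.24, limma adjusted p = 0.0804). Pycard had the largest WT difference, 0.86 (SE 0.50, limma adjusted p = 0.268), and its WT isoproterenol libraries all lay above its WT saline libraries. That held for 1 of the 9 genes and for 16.3% of all listed genes. Same-numbered WT libraries deviated together (correlations of 0.229 to 0.557 in 4 pairs), but the number did not always mark the closest library. WT isoproterenol replicate 2 was closer to WT saline replicate 1 (0.423) than to replicate 2 (0.407). WT isoproterenol replicate 3 was closer to WT saline replicate 4 (0.347) than to replicate 3 (0.304), so a pairing is not shown. Within the same-numbered pairs Pycard, Casp1, Gsdmd, Ripk3, Mlkl and Bax were higher with isoproterenol in 4 of 4, as were 24.2% of all genes. With the WT libraries fitted alone and the replicate number as a block, Pycard (limma adjusted p = 0.0395) and Mlkl (limma adjusted p = 0.0163) were called higher, against 34.5% of all genes called in that fit. When the 8 WT libraries were fitted alone without a block, Pycard and Mlkl were also called (limma adjusted p = 0.0240 and 0.0192), and Mlkl was also called without KO isoproterenol replicate 1 (limma adjusted p = 0.0154). The WT difference of Casp4 turned to -0.032 without WT isoproterenol replicate 2 and to -0.061 without WT saline replicate 2.

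Under saline the genotypes were not told apart. Between KO saline and WT saline 0 of the 9 genes were called by limma, against 0.0977% of all genes (0.0717% higher and 0.0261% lower), and 0 had an unadjusted p under 0.05. With voom precision weights the count was also 0. The log2 differences ran from -0.21 (Ripk3) to 0.60 (Casp4, 95% interval -0.27 to 1.46). The interval was narrowest for Casp8, -0.15 to 0.68 around 0.26, and widest for Nlrp3, -0.78 to 1.75 around 0.48, so differences of these sizes cannot be told from 0 here. These intervals use the spread of all 4 groups and do not measure that of the saline libraries alone. For Pycard the SD of log2 CPM was 1.45 in KO isoproterenol, 0.22 in KO saline and 0.31 in WT saline.

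Under isoproterenol all 9 genes were called higher in KO than in WT tissue, against 44.6% of all genes called (21.6% higher and 23.1% lower). The log2 differences were 3.23 in Casp4 (SE 0.41, limma adjusted p = 4.20e-05) at the top and 1.13 in Casp8 (SE 0.19, limma adjusted p = 3.79e-04) at the bottom, with a median of 1.73. The KO and WT libraries did not overlap for 8 of the 9 genes, the exception being Nlrp3, and 17.2% of all listed genes lay higher in KO without overlap. This comparison shares the KO isoproterenol libraries with the KO response, so the pair of comparisons is not independent. Without KO isoproterenol replicate 1 all 9 remained called, at 0.92 in Casp8 to 2.89 in Casp4.

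The log2 response to isoproterenol was larger in KO than in WT tissue past the threshold for 5 of the 9 genes, all 9 differences being above 0, against 24.7% of all genes called and 10.9% called higher. The called genes were Casp4, with a KO response minus WT response of 2.63 (SE 0.57, limma adjusted p = 0.00613), Ripk3 at 1.71 (SE 0.42, limma adjusted p = 0.0110), Mlkl at 1.45 (SE 0.34, limma adjusted p = 0.00856), Gsdmd at 1.43 (SE 0.48, limma adjusted p = 0.0413) and Casp8 at 0.87 (SE 0.28, limma adjusted p = 0.0328). Casp1 missed the threshold at 1.93 (SE 0.69, limma adjusted p = 0.0535), as did Bax at 1.07 (SE 0.39, limma adjusted p = 0.0581), Pycard at 1.90 (SE 0.71, limma adjusted p = 0.0615) and Nlrp3 at 1.86 (SE 0.84, limma adjusted p = 0.116). Each of the 9 had an unadjusted p under 0.05. Without KO isoproterenol replicate 1 the differences were 2.29 in Casp4, 1.39 in Ripk3, 1.18 in Mlkl, 1.03 in Gsdmd, 0.66 in Casp8, 1.40 in Casp1, 0.81 in Bax, 1.39 in Pycard and 1.18 in Nlrp3, of which 5 were called. The 3 calls for Casp4, Ripk3 and Mlkl held in all 16 fits that left out a library, while Casp8 was called in 8 and Gsdmd in 4 of those 16. All 9 were called without KO isoproterenol replicate 4 and 8 with scaling by library totals, a scaling that moved the median response difference of all genes to 0.34, against 0.044 with the authors' factors. With library totals 2895 of all genes were called higher and 1477 lower in this comparison, against 1674 and 2113 with the authors' factors. The share of all genes called without KO isoproterenol replicate 4 is not given here, so the count of 9 cannot be set against it.

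**Figure D2:**
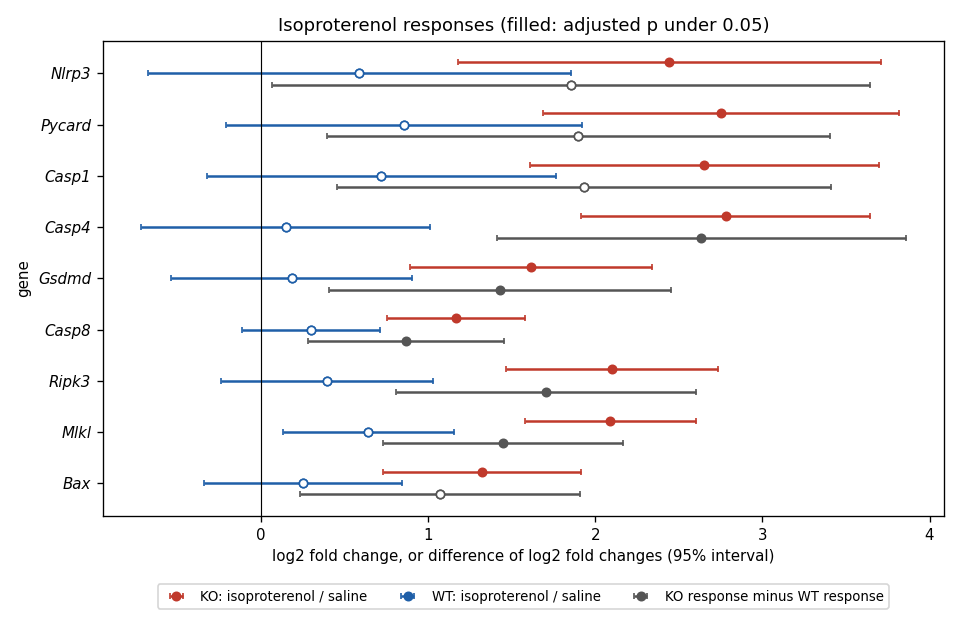
For each gene, the log2 fold change of isoproterenol over saline in KO tissue (red) and in WT tissue (blue), and the KO response minus the WT response (grey), each with its 95% interval; filled points have a limma adjusted p under 0.05. The KO points are all filled and lie between 1.17 and 2.78, the WT points are all open and lie between 0.15 and 0.86, and 5 of the 9 grey points are filled.

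Levels between genes were compared per kilobase of exon (CPM per kb), using the union of the annotated exons. In KO isoproterenol the order of mean levels was Bax (29.96 ± 13.6, SD, n = 4), Casp8 (26.8 ± 9.22), Gsdmd (23.7 ± 16.05), Casp1 (18.4 ± 16.1), Mlkl (14.5 ± 6.34), Ripk3 (12.8 ± 6.85), Casp4 (7.23 ± 4.10), Pycard (5.37 ± 4.41) and Nlrp3 (2.41 ± 2.67). Each neighbouring pair in that order was within its SD. In KO saline the order was Casp8 (11.6 ± 1.65), Bax (11.1 ± 1.31), Gsdmd (6.66 ± 0.950), Mlkl (3.23 ± 0.474), Ripk3 (2.77 ± 0.698), Casp1 (2.20 ± 0.466), Casp4 (0.986 ± 0.344), Pycard (0.581 ± 0.0877) and Nlrp3 (0.297 ± 0.0943). There Casp8 was not separated from Bax by more than their SDs, nor Mlkl from Ripk3, Ripk3 from Casp1 or Casp4 from Pycard. In WT isoproterenol the order began with Casp8 (11.9 ± 2.18), Bax (11.3 ± 2.77) and Gsdmd (7.13 ± 1.57) and ended with Pycard (0.810 ± 0.173), Casp4 (0.733 ± 0.270) and Nlrp3 (0.335 ± 0.156). In WT saline it began with Casp8 (9.58 ± 0.739), Bax (9.45 ± 2.07) and Gsdmd (6.32 ± 1.74) and ended with Casp4 (0.650 ± 0.226), Pycard (0.447 ± 0.0887) and Nlrp3 (0.219 ± 0.0863). Nlrp3 was last in all 4 groups, and Casp8 and Bax were the first pair in all 4.

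Other genes of the same pathways were read from 7 lists of 89 genes chosen by textbook role, of which 73 had values. In KO tissue isoproterenol raised 44 of the 73 and lowered 6, against 23.8% and 24.8% of all genes, with a median log2 fold change of 0.76. In the inflammasome list 9 of the 12 listed genes rose and 0 fell. Mefv, which encodes the sensor pyrin, was at 3.28 to 78.9 CPM in KO isoproterenol and 0.291 to 0.980 CPM in KO saline, a log2 difference of 4.70 (SE 0.78, limma adjusted p = 2.17e-04). The NAIP sensors of bacterial proteins also rose, Naip6 by 2.71 and Naip2 by 2.24 on the log2 scale, as did the DNA sensor Aim2 by 2.32. Without KO isoproterenol replicate 1 the log2 difference was 3.86 in Mefv and 1.69 in Aim2. Naip genes are near-identical copies whose reads the counting may have split, so their values are uncertain.

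In the interleukin list 8 of the 10 listed genes rose in KO tissue and 0 fell. The largest change was that of Il1rn, the secreted receptor antagonist, at 15.8 to 306 CPM in KO isoproterenol and 2.81 to 7.37 CPM in KO saline (log2 difference 4.02, SE 0.60, limma adjusted p = 9.59e-05), or 3.34 without KO isoproterenol replicate 1. The decoy receptor Il1r2 rose by 3.13 and the signalling receptor Il1r1 by 2.05. Il1b, the main cytokine substrate of caspase-1, was at 2.08 to 45.9 CPM in KO isoproterenol and 0.402 to 1.96 CPM in KO saline (log2 difference 2.46, SE 0.76, limma adjusted p = 0.0148). Without KO isoproterenol replicate 1 its difference was 1.52, and without KO saline replicate 4 it was 1.93 and not called (limma adjusted p = 0.0548). The call for Il1b was also lost with voom weights (limma adjusted p = 0.0653) and with the 2 KO groups alone (limma adjusted p = 0.0720). Il18 rose by 1.96 (SE 0.49, limma adjusted p = 0.00412). Of the 2 listed genes among the other gasdermins and membrane rupture factors, Gsdme rose by 1.36, and Ninj1, which ruptures the membrane, was at -0.22 and not called.

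In the death receptor and necroptosis list 12 of the 19 listed genes rose in KO tissue and 0 fell. Zbp1, a nucleic acid sensor that can engage RIPK3, was at 28.8 to 189 CPM in KO isoproterenol and 2.21 to 10.3 CPM in KO saline (log2 difference 3.64, SE 0.59, limma adjusted p = 1.90e-04). Tnf rose by 2.69 (1.83 without KO isoproterenol replicate 1), its receptor Tnfrsf1b by 2.91 and the ubiquitin-editing inhibitor Tnfaip3 by 2.56. Ripk1, the partner kinase of RIPK3, rose by 0.87 (SE 0.17, limma adjusted p = 8.32e-04).

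Genes of the BCL2 family and the apoptosome moved in both directions. Of 10 pro-death members 5 rose in KO tissue and 2 fell. Pmaip1 rose by 2.64, Bcl2l11 by 2.13 and Bid by 1.40, while Hrk, with 0.167 to 0.827 CPM in KO isoproterenol and 0.834 to 1.78 CPM in KO saline, had a log2 difference of -1.83 (limma adjusted p = 0.0357). That of Hrk was not called in 6 of the 16 fits without a library, the largest limma adjusted p being 0.0984 without KO isoproterenol replicate 1, nor with library totals (limma adjusted p = 0.0547). Bak1, which shares the pore-forming role of Bax, rose by 0.59 (SE 0.22, limma adjusted p = 0.0342), which became 0.36 and was not called without KO isoproterenol replicate 1 (limma adjusted p = 0.107). The call for Bak1 was lost in 5 of the 16 fits without a library, and also with the 2 KO groups alone (limma adjusted p = 0.101). Of 6 listed pro-survival members 5 rose and 1 fell. Mcl1 rose by 1.11, Bcl2l1 by 1.09 and Bcl2 by 0.71, and Bcl2 was called in only 6 of the 16 fits without a library. Bcl2a1d and Bcl2a1b rose by 3.13 and 3.00, but they are near-identical copies with few reads and their values are uncertain. Among 14 apoptosome and caspase genes 4 rose and 3 fell, beside 23.8% and 24.8% of all genes, so this list stood near the background. Apaf1, the apoptosome scaffold, rose by 1.54 (SE 0.33, limma adjusted p = 0.00140). The mitochondrial proteins Endog, Aifm1 and Cycs (cytochrome c) had log2 differences of -1.83, -1.44 and -1.09, and that of Endog was -1.23 without KO isoproterenol replicate 1. The call for Cycs (limma adjusted p = 0.0489) was lost in 15 of the 16 fits without a library, and also with library totals, plain empirical Bayes, voom weights and the 2 groups alone. Its log2 difference was -0.46 without KO isoproterenol replicate 1.

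**Figure D3:**
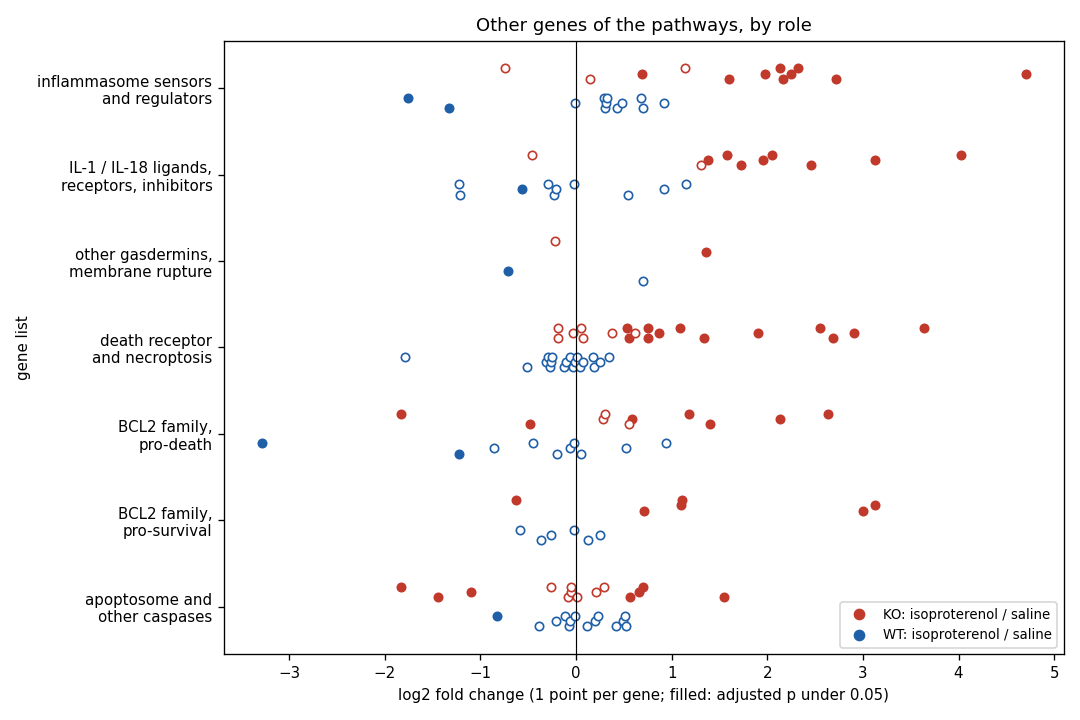
Log2 fold change of isoproterenol over saline for the 73 other pathway genes in KO tissue (red) and WT tissue (blue), 1 point per gene, by list; filled points have a limma adjusted p under 0.05. Filled red points lie mostly to the right (44 higher and 6 lower), and the 7 filled blue points all lie to the left.

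In WT tissue 0 of the 73 genes rose and 7 fell, against 7.60% and 8.98% of all genes. Among them were Hrk at -3.28 (SE 0.68), the inflammasome-related Txnip at -1.76 and Casp12 at -1.33, Bid at -1.22, Ninj1 at -0.71 and Il18bp at -0.56. The size of the Hrk change is uncertain, running from -3.74 to -2.54 with a library left out. The value of -2.54 came without WT isoproterenol replicate 4, a library in which 1 of the 10 pro-death genes had 0 reads. Of the 16 fits without a library, Ninj1 was not called in 7, Bid and Il18bp in 6 each and Txnip in 1, and Bid and Il18bp were also not called with voom weights. With the 8 WT libraries fitted alone, 9 were called higher and 11 lower, or 9 and 13 with the replicate block added. In that blocked fit 34.5% of all genes were called. The count over fits without a library ran from 2 to 14. Between KO saline and WT saline 0 of the 73 were called by limma, against 0.0977% of all genes, and 4 had an unadjusted p under 0.05. Between KO and WT tissue on isoproterenol 39 were higher and 4 lower, against 21.6% and 23.1% of all genes. The responses differed for 33, with 30 higher and 3 lower in the KO response, against 10.9% and 13.8% of all genes. Casp12 had opposite responses, 0.69 in KO tissue (limma adjusted p = 0.0102) and -1.33 in WT tissue (limma adjusted p = 5.87e-04), and the difference was 2.02 (SE 0.28, limma adjusted p = 6.95e-04).

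Most markers of myeloid cells also rose in KO tissue, where 23.8% of all genes were called higher and 24.8% lower. Of the 14 macrophage markers, 14 rose in KO tissue and 0 fell, and their summed level was 1163 to 8408 CPM in KO isoproterenol, against 394 to 696 CPM in KO saline. The WT sums were 662 to 1165 CPM with isoproterenol and 297 to 675 CPM with saline, and 3 of the 14 rose, against 7.60% of all genes. All 14 had reads in every library. Within KO isoproterenol the sums were 8408, 2384, 5283 and 1163 CPM in replicates 1 to 4, and replicate 1 was highest and replicate 4 lowest, as for 8 of the 9 genes. Unlike the sums, Ripk3 (26.7 and 24.3 CPM) and Mlkl (31.1 and 25.1 CPM) were higher in replicate 2 than in replicate 3, while the other genes were lower. Of 12 neutrophil markers 8 were listed, 6 of which rose and 1 fell in KO tissue, and their sum was 71.8 to 468 CPM in KO isoproterenol, 7.58 to 12.8 CPM in KO saline, 22.5 to 40.2 CPM in WT isoproterenol and 10.8 to 16.9 CPM in WT saline. The neutrophil markers Ly6g, Ngp, Camp and Mpo were not among the listed genes, and up to 3 of the 8 were at 0 reads in a library, in KO saline replicate 4. Of 12 adipocyte markers 8 fell and 0 rose in KO tissue, and their sum was 4207 to 43136 CPM in KO isoproterenol, with the lowest value in replicate 1, and 27294 to 29440 CPM in KO saline. The part of these cell types in the changes of the 9 genes was not tested.

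Set against the macrophage markers of the same library, the 9 genes moved unequally. The log2 level of each gene minus the mean log2 level of the 14 markers had a median of -2.85 in KO isoproterenol and -2.54 in KO saline for Casp1, and of -3.12 and -3.15 for Pycard in the same groups. For Casp4 it was -2.20 in KO isoproterenol and -2.48 in KO saline, and for Nlrp3 -4.55 and -4.09. The medians were -2.01 in KO isoproterenol and -1.70 in KO saline for Ripk3, and -1.85 and -1.54 for Mlkl. The ranges of the KO groups overlapped for these genes. The markers had a median log2 fold change of 2.22 in KO tissue, and Ripk3, Mlkl, Gsdmd, Bax and Casp8 rose less than that. The measure itself uses the mean of the markers. Any gene that rose less than this mean falls on the measure, and the share of all genes that did so was not computed. For Gsdmd the median was -1.31 in KO isoproterenol and -0.39 in KO saline. It was -0.87 and 0.70 for Casp8, and -1.39 and -0.29 for Bax. For Gsdmd, Casp8 and Bax the KO isoproterenol ranges lay below the KO saline ranges without overlap. Casp4 differed in WT tissue, with -4.23 to -3.36 in WT isoproterenol below -3.25 to -2.76 in WT saline. Over the 16 libraries the correlation with the mean of the markers ran from 0.910 (Casp4) to 0.975 (Casp1), in points that share their libraries and groups.

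**Figure D4:**
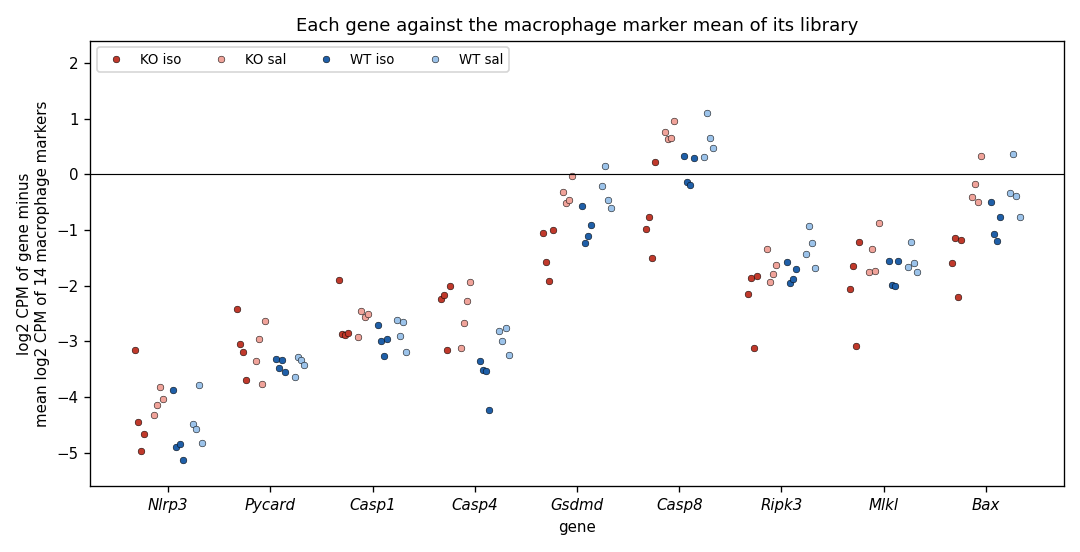
Log2 CPM of each gene minus the mean log2 CPM of 14 macrophage markers in the same library, with 1 point per library for KO isoproterenol, KO saline, WT isoproterenol and WT saline. Gsdmd, Casp8 and Bax have KO isoproterenol points below all KO saline points, and Nlrp3, Pycard, Casp1, Casp4, Ripk3 and Mlkl have overlapping KO groups.

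The genes whose log2 levels ran most like each of the 9 were taken by Pearson correlation over the 16 libraries, among all listed genes. Nlrp3 was nearest to Naip5 (0.983), Plcg2 (0.979) and Tifab (0.975). Pycard was nearest to B4galt6 (0.988), Metrnl (0.988) and Anxa1 (0.987). Casp1 was nearest to Sirpa (0.991), Lcp1 (0.991) and Tyrobp (0.990). Casp4 was nearest to Ifi211 (0.991), Zbp1 (0.983) and Oas1a (0.983). Gsdmd had Hcls1 (0.988), Tmsb10 (0.986) and Cyba (0.986), and Casp8 had Crybg1 (0.976), Csf2rb2 (0.971) and Lhfpl2 (0.970). Ripk3 had Rasgef1b (0.984), Frmd4a (0.980) and Myof (0.979), and Mlkl had Msr1 (0.980) and Lhfpl2 (0.980). Bax had Cfl1 (0.981), Creld2 (0.976) and Arhgdia (0.975). No gene was among the nearest 3 of more than 1 of the 9 except Lhfpl2, which was near Casp8 and Mlkl. These values describe likeness over libraries that differ by group.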

How the data were processed

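RNA-seq was run on 16 libraries with a strand-marking kit and single reads of 75 bases, per the labels' protocols. The deposited values are log2 CPM per gene. STAR, limma and the build mm39 are named per the submitters' processing notes. For the counter, its strand setting, the annotation and the gene filter, the entry is: not given in the sources used here.

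The log2 CPM have the form that voom gives, and whole reads were recovered from them within a relative 1e-06 for 100% of values, giving 9004515 to 20986735 reads per library. A count test had been planned, but the deposited unit is log2, so limma was used and the design otherwise kept. Group means of the 4 groups were fitted to log2 CPM in R 4.3.3 with limma 3.58.1 and statmod 1.5.0 (trended, robust empirical Bayes), with Benjamini-Hochberg adjustment over 15350 genes, and tested on simulated data. Symbols and exon lengths came from GENCODE M21 (GRCm38), which matched 15320 identifiers and not the other 30, with 6 identifiers sharing a symbol.

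The 9 genes and all lists were chosen with earlier results of these data known. All 9 genes were named; from each pathway list, up to 4 genes with the largest changes among those called in the KO response were named, up to 2 in each other comparison, and, by role, Il1b, Il18, Ripk1, Zbp1, Bak1, Bcl2 and Bcl2l1; a few genes that the rule names are not reported here. Groups came from the titles and treatment labels. For 3 KO saline libraries the title and the file header disagree on the replicate number, and titles were followed. The treatment text of the saline samples describes isoproterenol, and their treatment characteristic (saline) was used. The labels name no batch. They do not say what a shared replicate number marks. Same-numbered libraries deviated together in every pair of the WT groups and not in every pair of other groups, so the blocked WT values stand beside the others. Some WT libraries were closer to a library of another number, so a pairing is not shown. Alternatives were library totals, plain empirical Bayes, log2(CPM + 1), voom weights, a filter on low values, a replicate block, the 2 compared groups alone (and, added after seeing the data, both together), and each library left out. A level of 0 reads allows up to 3 reads, which is 0.143 to 0.345 CPM and covers counting error only.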

Additional observations from a re-analysis of the deposited data

Results flagged for a closer look

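Of 168 sets of 4 libraries (42 genes in 4 groups), 4 held a library far from the other 3, where chance gives about 1 in 20. In log2 CPM, Nlrp3 was at 0.83 in KO saline replicate 3, and Gsdmd was at 4.41 in WT saline replicate 1. Bcl2l1 was at 6.67 in KO isoproterenol replicate 4 and at 5.64 in WT saline replicate 3.

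The log2 response to isoproterenol differed between KO and WT tissue for 28 named genes, by limma's interaction test at an adjusted p under 0.05. Over all genes 24.7% were called. Some named genes were chosen for their calls, up to 2 per list in this same comparison, so the count of 28 cannot be set against that share. KO response minus WT response was 2.63 in Casp4, 1.43 in Gsdmd, 0.87 in Casp8, 1.71 in Ripk3 and 1.45 in Mlkl. Among inflammasome genes it was 4.41 in Mefv, 1.56 in Naip2, 2.41 in Naip6 and 2.02 in Casp12. Among interleukin genes it was 1.97 in Il18, 2.87 in Il1rn, 2.28 in Il18bp, 1.51 in Il1r1 and 4.34 in Il1r2. Among death receptor genes it was 4.47 in Tnf, 2.56 in Tnfrsf1b, 0.90 in Ripk1, 3.57 in Zbp1 and 2.80 in Tnfaip3. In the BCL2 family it was 2.62 in Bid, 2.99 in Bcl2l11, 2.84 in Pmaip1, 1.29 in Bcl2, 0.85 in Bcl2l1 and 1.14 in Mcl1. Among apoptosome and caspase genes it was 1.43 in Apaf1, -1.87 in Aifm1 and -2.35 in Endog. With voom weights the calls were lost for Mefv, Naip6, Il1rn, Pmaip1 and Tnf (limma adjusted p = 0.183, 0.159, 0.131, 0.129 and 0.0681). Of the 16 fits without a library, Naip6 and Bcl2 were not called in 5 each. Aifm1 was not called in 4, Pmaip1 in 3 and Il1rn in 2. Such refits were read for only some of the other pathway genes.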

How the results depend on the processing

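The KO response and the KO against WT difference under isoproterenol were called for every one of the 9 genes tested under each alternative (8 with the filter on low values, which drops Nlrp3), and the saline comparison gave 0 throughout. The WT response count of 0 became 2 with the 2 compared groups alone and ran from 0 to 1 with a library left out. The response difference count of 5 became 8 with library totals and ran from 3 to 9 with a library left out, the 9 coming without KO isoproterenol replicate 4. For the fits with a library left out, the share of all genes called is not given here. For the 73 other pathway genes the WT count of 7 became 20 with the 2 compared groups alone and ran from 2 to 14 with a library left out, 14 without KO isoproterenol replicate 1 and 2 without WT isoproterenol replicate 4. Their response difference count of 33 ran from 20 to 43. The WT difference of Casp4, 0.15, turned to -0.032 without WT isoproterenol replicate 2 and to -0.061 without WT saline replicate 2, the range with a library left out being -0.061 to 0.449. The call for Gsdmd in the response difference was lost with plain empirical Bayes (limma adjusted p = 0.0516) and voom weights (limma adjusted p = 0.0739). Library totals moved the all-gene median to 0.18 in the KO response, -0.13 in the WT response, 0.27 between genotypes on isoproterenol and 0.34 in the response difference. The cause was not tested. Same-numbered libraries deviated together in all 4 pairs of WT isoproterenol and WT saline (0.229 to 0.557) but in at most 2 of 4 pairs of any other 2 groups over 0.1 (-0.466 to 0.439). Of 48 best matches 12 had the same number, the share that a random choice among 4 libraries gives. In an alternative chosen after seeing the data, with the replicate block and the 2 WT groups alone, 2 of the 9 genes and 22 of the 73 others were called, against 34.5% of all genes. With the replicate block over all 16 libraries, 9 genes were called in the KO response, 0 in the WT response and 7 in the response difference, adding Casp1 (limma adjusted p = 0.0368) and Bax (limma adjusted p = 0.0389). Outside KO isoproterenol Nlrp3 rests on 5 to 24 reads per library, which limits its precision.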

Other observations

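In KO tissue isoproterenol raised 4 of 8 endothelial markers and 2 of 8 fibroblast markers and lowered none of either, by limma's adjusted p, beside 23.8% of all genes higher and 24.8% lower. In WT tissue it raised 3 of the 8 endothelial markers and 0 of the 8 fibroblast markers, of which 1 had an unadjusted p under 0.05, beside 7.60% of all genes higher. Of 7 listed lymphocyte markers, 3 fell in KO tissue and 1 in WT tissue, beside 24.8% and 8.98% of all genes, and 0 rose. These markers had few reads, with sums of 3.33 to 22.2 CPM in KO isoproterenol and 8.33 to 19.5 CPM in KO saline. In KO isoproterenol replicate 2, 3 of the 7 were at 0 reads, while replicate 1 of that group had the highest sum of all 16 libraries. For 8 skeletal muscle markers 0 were called in any comparison by limma and 0 had an unadjusted p under 0.05, although their median log2 difference was -2.30 between KO saline and WT saline. Their summed level was 6.33 to 549.9 CPM in KO isoproterenol, 5.74 to 618 CPM in KO saline, 5.87 to 2317 CPM in WT isoproterenol and 5.78 to 7058 CPM in WT saline, and so differed widely between libraries of each group.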
